A study of Mus musculus with 12 samples.

Results

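The 3 libraries described here hold RNA of mouse rod photoreceptors that had received the control short hairpin RNA (shRNA). They were chosen by their title alone, shRNA Control 1, 2 and 3, and they are 3 of the 12 libraries of the study. The other 9 libraries came from rods given an shRNA against mouse Csnk2a1, the pcDNA4c expression vector with mouse Csnk2a1, or the pcDNA4c control, each with 3 libraries. Csnk2a1 encodes a catalytic subunit of protein kinase CK2, whose part in gene expression under the transcription factor NRL is the subject of the study. Plasmids had been brought into the retina by electric pulses (electroporation), and at postnatal day 8 the treated area was dissociated with papain. Intact rods that shone with green fluorescent protein (GFP) were collected manually by micromanipulator, 50 to 100 cells for a library. Every group thus shared electroporation, the GFP label and dissociation, so a level given here is that of electroporated, dissociated rods carrying a control hairpin. Mouse strain, the promoters of the GFP and shRNA plasmids and the hairpin's sequence are not stated in the labels used here. The labels call the 3 RNA samples independent, but do not say whether they came from separate animals, so the standard deviations (SD) below may be partly technical.

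Rods are the photoreceptors of dim light. In the outer segment, a modified cilium packed with membrane discs, light activates the visual pigment, which activates the G protein transducin, which relieves the inhibition of a phosphodiesterase. The phosphodiesterase lowers cyclic GMP and closes the cation channel of the outer segment, and arrestin, a receptor kinase and the guanylate cyclases restore the dark state. The transcription factor OTX2 sets photoreceptor fate, CRX activates photoreceptor genes, and NRL with its target NR2E3 directs the cell to be a rod and not a cone. In the mouse the outer segments are still being built during the second postnatal week, before the eyes open.

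Total RNA was converted to stranded libraries with a Pico input kit that amplifies by PCR without molecular identifiers. Totals of the estimated gene counts were 1856775, 1608926 and 1683277 in shRNA Control 1, 2 and 3, against 1692419 to 3567121 in the other 9 libraries. Levels of 1 gene across libraries are given as CPM, the counts relative to library size after scaling with trimmed means of M-values (TMM). Levels of different genes are compared as TPM, which also divides by transcript length. No group was tested against another, and every value below is a description of these 3 libraries.

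The label was checked with 4 rod markers. Sag, which encodes rod arrestin, was at 701, 631 and 443 TPM, Crx at 129, 163 and 116 TPM, and Nrl at 86.2, 103 and 97.1 TPM. Gnat1, the alpha subunit of rod transducin, was at 35.9, 45.5 and 32.7 TPM. All 4 were present in every library, with a median of 116 TPM, while the 21461 nuclear protein-coding genes that could be ranked by TPM had a median of 2.71 TPM. The rod label was therefore kept.

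A gene with at least 1 count was taken as detected. Detection covered 20614, 20352 and 22146 genes in the 3 libraries, a mean of 21037 ± 969 (SD, n = 3). Of the 29365 genes detected anywhere, 13697 (46.6%) were found in all 3 libraries, 6353 in 2 of them and 9315 in 1. The shared genes were the abundant ones: genes found in all 3 libraries held 92.2% of the counts and genes found in only 1 held 2.40%. The 10 most counted genes held 18.0% ± 0.267 of the counts (SD, n = 3), and 961 to 1011 genes made up 50% of each library. At a level of at least 10 TPM there were 4645, 4699 and 4378 nuclear protein-coding genes, and at 100 TPM there were 236, 243 and 188.

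Protein-coding genes led the libraries by counts, and small structured RNAs led them by TPM. Protein-coding genes held 68.6%, 68.0% and 65.9% of the counts, long noncoding RNAs 9.01%, 9.12% and 9.85%, and the annotated class of miscellaneous RNAs 7.96%, 8.14% and 8.18%. The 2 mitochondrial ribosomal RNAs took 7.16%, 6.99% and 7.41%, and processed pseudogenes took 3.91%, 4.25% and 4.83%. These shares lay close together in the 3 libraries, and none of the 5 classes differed by more than 3 percentage points between them. Per length the picture turned around, because short RNAs need few counts for a high TPM. Miscellaneous RNAs held 35.9% ± 0.863 of the TPM and protein-coding genes 21.2% ± 1.20 (SD, n = 3). Transcripts shorter than 200 nucleotides took 31.7%, 29.4% and 33.8% of the TPM. A TPM value of a messenger RNA below is thus a fraction of a total that is mostly not messenger RNA.

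**Figure D1:**
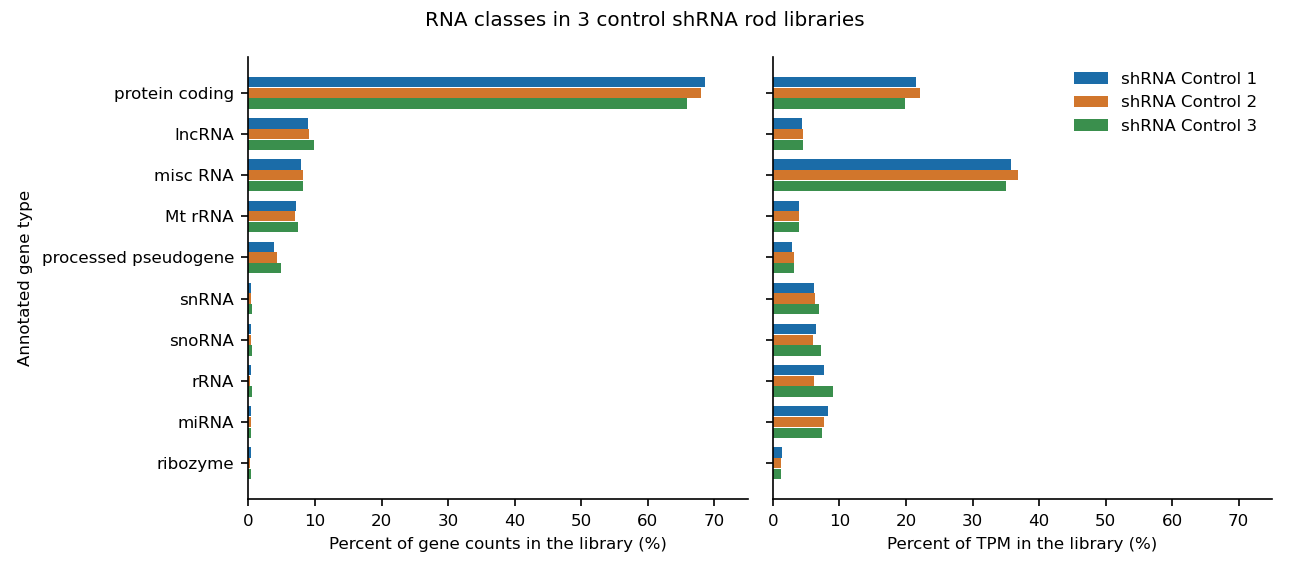
Shares of gene counts (left) and of TPM (right) by annotated gene type, in percent, with 1 bar for each library. Protein-coding genes lead the counts at 65.9% to 68.6%, and miscellaneous RNAs lead the TPM with a mean of 35.9%.

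The most counted nuclear genes were 7SL and 7SK. Rn7s1 and Rn7s2 encode 7SL, the RNA scaffold of the signal recognition particle that docks secretory ribosomes to the endoplasmic reticulum, and Rn7sk encodes 7SK, which holds the elongation factor P-TEFb in an inactive store. Together these 3 genes held 7.80%, 7.98% and 7.99% of the counts and 32.5% ± 1.16 of the TPM (SD, n = 3). Rn7sk stood at 26823, 26909 and 27765 CPM, a coefficient of variation (CV, the SD over the mean) of 1.92%. Rn7s1 stood at 24136, 24785 and 24256 CPM, and Rn7s2 had the same 3 values. Both transcripts are 300 nucleotides long and identical letter by letter in the GENCODE M21 set, so the estimate splits their reads evenly and only their sum can be read. Rny3, a Y RNA bound by the Ro60 protein, has its sequence shown as an abundant short RNA in which every 31-base word is its own. It was chosen after its values were seen, 24670, 21023 and 26666 TPM from only 1100, 920 and 1247 CPM. No part of it is singled out in capitals. Rny3 lies at chr6:47781624-47781725 (GRCm38, plus strand).
Rny3: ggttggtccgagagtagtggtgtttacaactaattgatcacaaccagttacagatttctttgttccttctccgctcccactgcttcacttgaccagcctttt

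Other abundant noncoding genes were Rpph1, the RNA of ribonuclease P, at 3124, 2882 and 3272 CPM, and Malat1, a long RNA of nuclear speckles, at 6560, 6924 and 4940 CPM. Gm42418, annotated as a long noncoding RNA, reached 10259, 7637 and 8847 CPM, but only 3.66% of its 31-base words occur in no other gene. The predicted genes Gm47578, Gm48416 and Gm48493 were also among the 10 most counted noncoding genes, at 0.251%, 0.202% and 0.187% of the counts. The long gene AC160336.1 held 0.261%. Reads of genes that share most of their words cannot be assigned to a single locus, so these predicted genes are reported as uncertain.

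The mitochondrial genome held 8.58%, 8.26% and 8.69% of the counts. mt-Rnr1 and mt-Rnr2, the 12S and 16S ribosomal RNAs, stood at 32988, 33306 and 36211 CPM and at 35986, 33623 and 34526 CPM. Of its 13 protein-coding genes, 12 were found in all 3 libraries. Among those with mostly own sequence, mt-Cytb (cytochrome b) was at 1560, 1656 and 1262 TPM and mt-Nd1 (a subunit of complex I) at 1328, 1019 and 900.4 TPM. The missing gene was mt-Nd3, listed at 0 in all 3 libraries. Its words are almost all shared, with 1.89% its own, and the nuclear pseudogene Gm28438 that holds them stood at 555, 517 and 536 TPM.

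The same pairing appeared for cytochrome oxidase and ATP synthase subunits. mt-Co2 was at 1185, 5.38 and 362 TPM, the widest scatter of any mitochondrial messenger shown here. Gm28661, a pseudogene at chr1:24614885-24615565 that shares all of its words with mt-Co2, was at 1373, 2365 and 2258 TPM. Their sum was 2557, 2370 and 2619 TPM, which is 2516 ± 130 (SD, n = 3), so the pair was even where its members were not. mt-Atp6 was at 598, 962 and 1615 TPM, and with Gm10925 the sums were 2199, 1797 and 1615 TPM. mt-Co3 and its partner Gm28437 summed to 816, 1068 and 820 TPM, of which mt-Co3 itself held 127, 170 and 134 TPM. These pseudogenes were picked after their values were seen. A single level for mt-Co2, mt-Co3, mt-Atp6 or mt-Nd3 is not to be read from these tables without its partner.

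Among nuclear protein-coding genes ranked by mean TPM, rod genes stood beside ribosomal proteins and mitochondrial enzymes. The 25 highest, leaving out 14 predicted genes with Gm names, included 10 ribosomal protein genes, 2 genes of oxidative phosphorylation and 3 of rod phototransduction. Pdc, which encodes phosducin, a binder of the transducin beta and gamma subunits, ranked 2 of all with 1022, 1111 and 816 TPM. Sag ranked 7, and Gngt1, the gamma subunit of rod transducin, ranked 37 with 318, 278 and 313 TPM. The lowest Pdc value lay above the highest Sag value, and the lowest Sag value lay above every Gngt1 value.

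Atp5mpl, a small subunit of the ATP synthase, followed Pdc at 1002, 1004 and 614 TPM, and Cox6c, of cytochrome oxidase, was at 463, 491 and 564 TPM. Lars2, the mitochondrial leucyl-tRNA synthetase, was at 828, 667 and 677 TPM. Of the ribosomal proteins Rplp2 led with 488, 569 and 469 TPM. Its range overlapped that of Ubb, a polyubiquitin gene, at 472, 580 and 402 TPM. Gapdh, of glycolysis, was at 489, 509 and 390 TPM, and Eef1a1, the elongation factor that brings tRNA to the ribosome, at 367, 474 and 321 TPM. Ddx5, an RNA helicase, was uneven, with 412, 462 and 121 TPM. Atp2b4, a plasma membrane calcium pump, had 461, 383 and 580 TPM from only 126, 103 and 167 CPM. G530012D18Rik ranked 15, yet 7.45% of its words were its own, and the predicted gene Gm10800, named after its values were seen, ranked 1 at 4504 ± 351 TPM (SD, n = 3) with 58.0%. Of the ribosomal proteins among the 25 highest, Rpl23a had the fewest own words, 17.0%, and Rpl22 the most, 93.2%, so pseudogene reads can enter or leave most of these levels. Pdc, at 100%, and Sag, at 94.3%, are not touched in this way to the same extent.

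The rod genes were collected from 6 lists by role: phototransduction, transcription factors, outer segment and connecting cilium, retinoid cycle, pumps and channels of the inner segment, and the synapse. They name 114 different genes. Of these, 106 (93.0%) had a count in all 3 libraries, none was at 0 in all of them, and 97 lay above the median of the ranked protein-coding genes. Among all ranked protein-coding genes, 50.2% had a count in all 3 libraries. The median rod gene stood at 27.0 TPM, while the protein-coding genes present in all 3 libraries had a median of 7.68 TPM. Rod genes made up 8 of the 100 highest protein-coding genes and 45 of the 1000 highest. Ranked by CPM, without division by length, 19 of the 100 were rod genes. The rod genes held 3.14%, 2.62% and 2.41% of all counts, with the highest share in shRNA Control 1. At least 90% of the 31-base words were unique in 107 of the 114 genes, and Rax, Samd11, Prcd, Arl3, Atp1b1, Kcnj14 and Syp fell short of that.

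**Figure D2:**
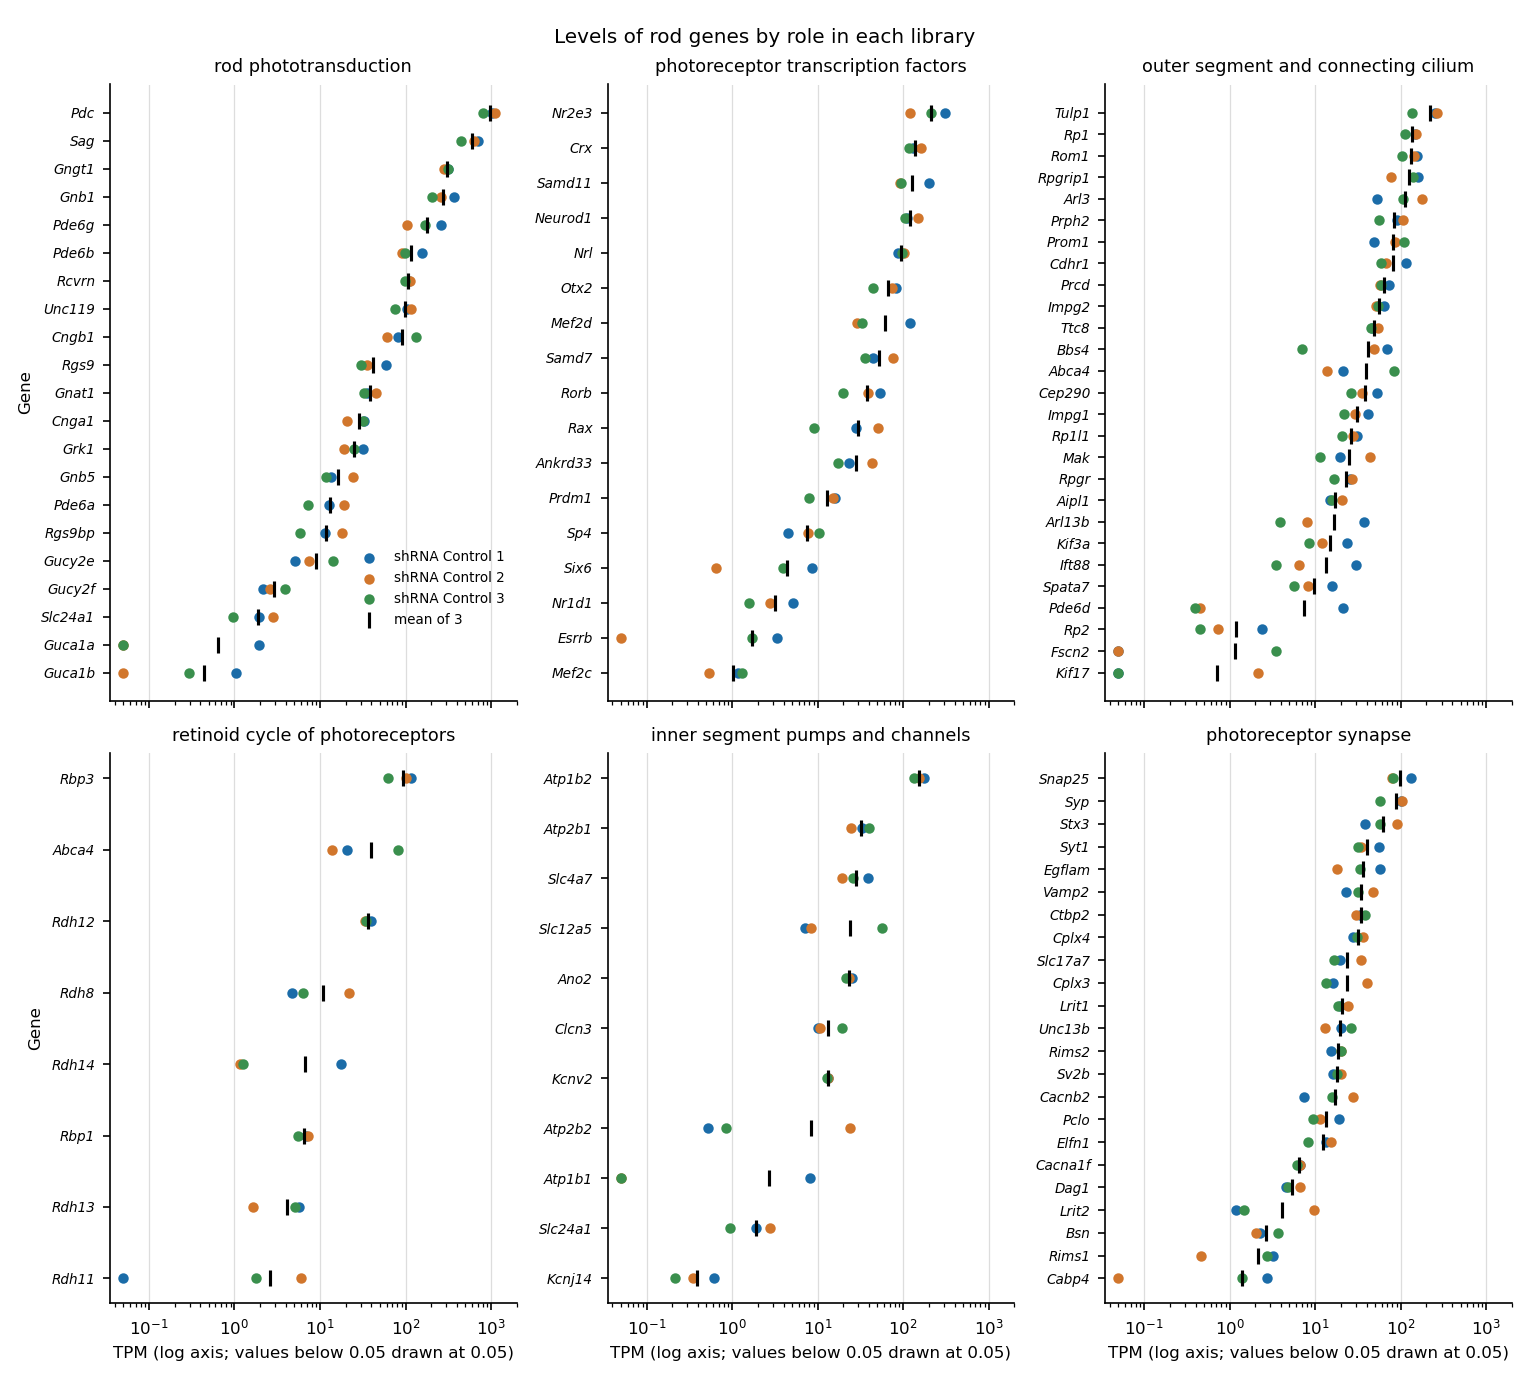
TPM of the rod genes reported here in the 3 libraries (coloured points) with the mean (black bar), grouped by role, on a logarithmic axis where values under 0.05 are drawn at 0.05. Pdc and Sag lead phototransduction at means of 983 and 591 TPM, and Guca1a and Guca1b close it at under 1 TPM.

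Upstream sequences of the rod genes were taken from RefSeq (GRCm38.p6), which had an entry for 87 of the 114. For each gene a single start was used, the lowest by chromosome position, and any other start was not searched. Each was searched in the 250 bases before the start, on both strands, for TAATCC, the core bound by CRX and OTX2, and for TGCTGA, part of the palindromic element bound by NRL and other MAF proteins. A match of TAATCC cannot overlap a match of TGCTGA, on either strand. TAATCC was found in 21 of the 87 rod promoters (24.1%), and in 8 of 15 promoters of phototransduction genes (53.3%), while 6.42% of all 27025 promoters of the same length held it. TGCTGA was found in 20.7% of the rod promoters and in 15.9% of all, and both motifs in 8.05% and 0.981%. Promoters of cytosolic ribosomal protein genes held TAATCC in 3 of 67 cases (4.48%). The small lists of cone and bipolar markers held it in 2 of 10 (20.0%) and 3 of 14 promoters (21.4%). The rod share of 24.1% is thus not particular to rod genes. A match is a run of letters and not a measured binding site. Sequences upstream of 5 genes with high levels are shown, in the direction of transcription, with TAATCC and TGCTGA or their reverse complements GGATTA and TCAGCA in capitals. Sag, Rpgrip1 and Rbp3 hold both motifs, Crx holds TAATCC in 2 places, and Gngt1 holds it in 1. They lie at chr1:87803430-87803679 (plus strand), chr6:3993758-3994007 (plus strand), chr7:15879956-15880205 (minus strand), chr14:52110653-52110902 (plus strand) and chr14:33953753-33954002 (plus strand).
Sag: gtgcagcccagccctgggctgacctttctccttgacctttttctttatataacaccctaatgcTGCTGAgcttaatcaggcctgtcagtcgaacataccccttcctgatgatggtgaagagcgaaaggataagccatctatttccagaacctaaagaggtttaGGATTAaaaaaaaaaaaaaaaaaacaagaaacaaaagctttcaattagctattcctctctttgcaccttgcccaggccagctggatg
Gngt1: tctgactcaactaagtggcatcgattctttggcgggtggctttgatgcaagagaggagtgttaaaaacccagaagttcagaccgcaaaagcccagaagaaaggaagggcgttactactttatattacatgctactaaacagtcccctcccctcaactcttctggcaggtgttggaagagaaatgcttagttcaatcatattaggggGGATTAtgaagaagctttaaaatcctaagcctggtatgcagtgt
Crx: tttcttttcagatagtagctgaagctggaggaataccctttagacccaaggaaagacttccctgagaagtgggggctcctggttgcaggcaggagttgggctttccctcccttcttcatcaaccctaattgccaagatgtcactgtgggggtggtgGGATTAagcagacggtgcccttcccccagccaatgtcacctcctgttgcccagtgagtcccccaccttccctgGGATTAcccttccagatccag
Rpgrip1: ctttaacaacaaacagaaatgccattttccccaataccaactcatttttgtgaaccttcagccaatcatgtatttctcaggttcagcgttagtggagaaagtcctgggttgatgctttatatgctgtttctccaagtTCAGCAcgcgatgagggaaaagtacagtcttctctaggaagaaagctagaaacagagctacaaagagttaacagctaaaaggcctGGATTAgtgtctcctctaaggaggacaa
Rbp3: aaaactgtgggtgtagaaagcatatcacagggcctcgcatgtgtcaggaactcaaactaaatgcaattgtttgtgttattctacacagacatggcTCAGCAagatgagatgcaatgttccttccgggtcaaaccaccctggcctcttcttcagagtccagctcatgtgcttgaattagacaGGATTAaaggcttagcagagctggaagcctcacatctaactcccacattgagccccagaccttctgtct

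Counted back from the start, the TAATCC match began at -87 in Sag, -44 in Gngt1, -94 and -21 in Crx, -28 in Rpgrip1 and -69 in Rbp3. The TGCTGA match began farther from the start, at -187 in Sag, -113 in Rpgrip1 and -155 in Rbp3. At the single start used, Pdc, Nrl, Nr2e3, Prph2, Rom1, Tulp1 and Unc119 held neither motif in this window, although all of these genes were abundant.

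Phototransduction genes held 0.950%, 0.788% and 0.719% of the counts, or 0.819% ± 0.119 (SD, n = 3). Of its 22 genes, 20 were found in all 3 libraries and their levels ran over 3 orders of magnitude in TPM.

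The 3 subunits of rod transducin were at unequal levels. Gngt1 (gamma) was at 303 ± 21.4 TPM, Gnb1 (beta, shared with many other cells) at 369, 258 and 204 TPM, and Gnat1 (alpha) at 38.0 ± 6.67 TPM (SD, n = 3). Over all transcripts, noncoding forms included, Gngt1 exceeded Gnat1 8.84, 6.12 and 9.57 times. In coding transcripts the means were 302 TPM for Gngt1, 139 TPM for Gnb1 and 17.8 TPM for Gnat1. Every Gngt1 and Gnb1 value lay above every Gnat1 value, in coding transcripts as well. The phosphodiesterase showed the same kind of gap. Pde6g, its inhibitory gamma subunit, was at 258, 104 and 168 TPM, Pde6b (catalytic beta) at 156, 90.7 and 98.6 TPM, and Pde6a (catalytic alpha) at 12.6, 19.1 and 7.16 TPM. Pde6b was above Pde6a 12.4, 4.75 and 13.8 times, though the proteins form a complex of 1 alpha and 1 beta chain. The ranges of Pde6g and Pde6b overlapped.

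Of the channel subunits, Cngb1 was at 82.0, 60.0 and 133 TPM and Cnga1 at 32.5, 20.6 and 31.7 TPM. Cngb1 exceeded Cnga1 in all 3 libraries, by 3.21 ± 0.876 times (SD, n = 3). The exchanger Slc24a1, which carries calcium out of the outer segment, was low at 1.92, 2.79 and 0.950 TPM. Rcvrn, the calcium sensor recoverin, was among the most even at 109, 114 and 98.3 TPM, and its CPM had a CV of 4.28%. Unc119, a carrier of lipid-modified transducin, was at 103, 115 and 74.4 TPM, and Grk1, the receptor kinase of rods, at 31.6, 19.3 and 24.9 TPM. Rgs9, which speeds up GTP hydrolysis by transducin, was at 58.8, 35.8 and 30.2 TPM, with its partners Gnb5 at 16.4 ± 6.70 TPM and Rgs9bp at 11.7 ± 6.08 TPM (SD, n = 3).

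The guanylate cyclases and their activators closed the list. Gucy2e was at 5.05, 7.45 and 14.1 TPM and Gucy2f at 2.18, 2.61 and 3.87 TPM. Guca1a, an activator protein of the cyclases, was found only in shRNA Control 1, at 1.92 TPM, and was at 0 in the other libraries. Guca1b was at 1.04, 0 and 0.294 TPM. At these depths a count of 0 allows up to 1.56 to 1.79 CPM, an upper limit that covers counting error only, as no molecular identifiers mark PCR copies. In the order of mean TPM over all transcripts, the ranges of neighbouring genes failed to overlap at 5 of 21 steps. These were Pdc over Sag, Sag over Gngt1, Cngb1 over Rgs9, Gnat1 over Cnga1 and Gucy2e over Gucy2f. The step of Gnat1 over Cnga1 was reversed in coding transcripts, with Gnat1 at 20.7, 17.9 and 14.8 TPM and Cnga1 at 29.8, 20.1 and 30.8 TPM. The lowest coding value of Cngb1, 58.3 TPM, was also just below the highest of Rgs9, 58.8 TPM. At the remaining steps the ranges overlapped, which does not exclude a steady order within libraries. Pde6g, for 1, was above its neighbour Pde6b in all 3 libraries, by 1.66, 1.14 and 1.70 times.

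Of the photoreceptor transcription factors, Nr2e3, a nuclear receptor that represses cone genes, had the highest mean, with 310, 119 and 214 TPM. That lead rested on transcripts annotated as retained introns, which held 79.1%, 39.3% and 63.7% of its TPM. The coding transcript of Nr2e3 was at 64.7, 72.3 and 67.5 TPM, below the coding transcripts of Crx in every library, and in shRNA Control 2 Crx exceeded Nr2e3 over all transcripts as well. Crx was at 136 ± 24.3 TPM over all transcripts, of which 135 ± 25.7 TPM were coding (SD, n = 3). Samd11, a Polycomb partner that represses non-rod genes, came next at 200, 90.9 and 95.5 TPM, of which 83.3, 46.5 and 34.8 TPM were coding. Neurod1, a helix-loop-helix factor of photoreceptor survival, was at 121 ± 23.8 TPM, all of it coding, and Nrl at 95.6 ± 8.72 TPM (SD, n = 3). Nrl was even, with 302, 356 and 358 CPM, while Nr2e3 varied from 304 to 805 CPM. Crx exceeded Nrl in all 3 libraries, by 1.42 ± 0.200 times on the TPM scale, although the lowest Crx value, 116, was not far above the highest Nrl value, 103. Samd7, of the same complex, was at 45.0, 75.6 and 35.4 TPM. Otx2 was at 82.2, 74.1 and 45.0 TPM and Rorb, a nuclear receptor that acts upstream of Nrl, at 54.0, 39.3 and 19.7 TPM. Mef2d, an activator that works with Crx, was at 120, 29.1 and 33.3 TPM, so its mean rests on shRNA Control 1, while its coding transcripts were at 37.3, 19.9 and 31.7 TPM. Prdm1, a repressor of the bipolar fate, was still present at 15.8, 15.2 and 8.01 TPM, of which 15.8, 2.27 and 8.01 TPM were coding. Esrrb, known from mature rods, was at 3.36, 0 and 1.72 TPM, and Mef2c at 1.18, 0.544 and 1.32 TPM. Casz1 and Sall3 have no TPM here and were found in all 3 libraries.

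Genes of the outer segment and the connecting cilium were present in all 3 libraries for 26 of 28, with a median of 38.6 TPM. Tulp1, a protein of transport to the outer segment, had the highest values at 250, 269 and 135 TPM. Retained-intron transcripts held 56.5%, 63.8% and 38.3% of them, and the coding transcripts of Tulp1, at 99.3, 94.8 and 82.9 TPM, lay below those of Rp1 and Rom1 in every library. Rp1, a protein of the axonemal microtubules (chr1:3999557-4409241), was at 148, 150 and 112 TPM and, as a long messenger, at 1593, 1586 and 1268 CPM. Rom1 and Prph2, the tetraspanins of the disc rim, were at 155, 142 and 103 TPM and at 90.4, 107 and 56.0 TPM. Rom1 was above Prph2 in each library, by 1.63 ± 0.264 times (SD, n = 3), but their ranges overlapped. Rpgrip1, which anchors the RPGR protein in the connecting cilium, was at 161, 76.3 and 139 TPM, of which 42.0, 34.2 and 45.7 TPM were coding. Rpgr was at 25.3, 27.3 and 16.6 TPM. Cdhr1, a cadherin of the growing discs, was at 114, 67.3 and 59.4 TPM, and Prom1 at 48.5, 84.7 and 110 TPM. The coding transcripts of Prom1 were even, at 35.6, 35.2 and 32.8 TPM. Impg2, a proteoglycan of the matrix around the outer segments, was at 63.8, 50.8 and 53.9 TPM. Of these, 54.9, 50.7 and 37.3 TPM were coding. Fscn2 and Kif17 were found in 1 library each, at 3.44 and 2.16 TPM, and Pde6d was at 21.2, 0.455 and 0.395 TPM.

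The retinoid cycle was led by Rbp3, the carrier of retinoids between photoreceptors and pigment epithelium, at 117, 101 and 62.2 TPM. Rdh12, a retinol dehydrogenase of the inner segment, was at 39.7, 34.0 and 34.8 TPM, of which 24.3, 11.4 and 16.8 TPM were coding. Rdh8, the dehydrogenase of the outer segment, was lower and uneven at 4.68, 21.8 and 6.41 TPM. Abca4, the retinoid flippase of the disc rim, was at 20.9, 13.8 and 82.6 TPM, so its mean rests on shRNA Control 3. In that library 63.8% of the Abca4 TPM came from a transcript of 531 bases annotated as a retained intron, and the full-length coding transcript held 8.77%.

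Among pumps and channels of the inner segment, Atp1b2, a beta subunit of the sodium pump, led at 176, 153 and 133 TPM. Kcnv2, a modifier subunit of the rod potassium channel, was the most even of the 1291 genes with at least 100 counts in each library, at 117, 116 and 119 CPM. Atp1b1 was found in 1 library, at 8.17 TPM, and Atp2b2 was at 0.517, 24.0 and 0.844 TPM, of which 0.517, 1.61 and 0.844 TPM were coding. Slc12a5, the neuronal chloride exporter, was at 7.15, 8.29 and 56.0 TPM, of which 0.376, 4.20 and 2.67 TPM were coding.

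Of 25 synapse genes 24 were found in all 3 libraries. Snap25 and Syp, of the vesicle release machinery in neurons at large, were at 130, 79.4 and 81.3 TPM and between 57.1 and 104 TPM. Stx3, the syntaxin of ribbon synapses, was at 38.0, 90.1 and 56.8 TPM. Components of the ribbon and of its calcium channel were lower. Ctbp2, the gene of the ribbon protein RIBEYE, was at 33.4, 30.1 and 38.2 TPM. Cplx4, a complexin of photoreceptors, was at 27.7, 36.4 and 31.1 TPM. Slc17a7, the vesicular glutamate transporter, was at 19.4, 34.0 and 16.7 TPM over all transcripts. Its coding transcripts were at 15.3, 8.22 and 14.2 TPM, lowest in shRNA Control 2. Cacna1f, the channel pore, was low at 6.62, 6.65 and 6.18 TPM over all transcripts. Its coding transcripts were not even, at 2.68, 0.839 and 0.528 TPM. Cabp4, which tunes that channel, was at 2.75, 0 and 1.40 TPM. Dmd, dystrophin, which gathers at photoreceptor terminals, was counted at 1074, 651 and 480 CPM and has no TPM here.

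The rod genes followed more than 1 order across the libraries. Of the 106 found in all 3 libraries, 50 were highest in shRNA Control 1, 36 in shRNA Control 2 and 20 in shRNA Control 3, and 54 were lowest in shRNA Control 3. The phototransduction sum was 3706, 3225 and 2680 TPM, and the sum over the markers of other cell types was 1261, 1380 and 1007 TPM, or 769, 674 and 616 TPM without the bipolar and Müller lists. These 3 sums were lowest in shRNA Control 3. The part of depth, cell number or other cells in this order was not tested. Of the 106 genes, 31 had a CV under 25% and 28 a CV of 50% or more. Across the 114 genes, log2(CPM + 1) had a Pearson correlation of 0.835 to 0.887 between pairs of libraries, while across all 13062 genes with a mean of at least 10 CPM it was 0.351 to 0.384. These correlations run over genes, which are not independent replicates, and the sets differ in their range of levels.

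Energy metabolism was prominent among the other programs. Of 84 nuclear genes of oxidative phosphorylation, 76 were in all 3 libraries, with a median of 43.0 TPM, and 50 were among the 1000 highest protein-coding genes. Those at 0 throughout were Cox6a2, Cox6b2, Cox7a1 and Cox8c, known as forms of muscle or testis. Glycolysis had 19 of 20 genes in all 3 libraries and a median of 34.7 TPM. Ldha, the lactate dehydrogenase subunit of glycolytic cells, was at 255, 271 and 264 TPM, and exceeded Ldhb, a partner named after its values were seen, 18.1 ± 4.46 times (SD, n = 3). Aldoa was at 209, 267 and 190 TPM and Pkm, pyruvate kinase, at 277, 147 and 214 TPM. Cytosolic ribosomal proteins had 81 of 88 genes in all 3 libraries, a median of 84.7 TPM and 28 genes among the 100 highest. The members at 0 throughout were Rpl10l and Rpl39l, known from testis, and the retrogene Rps27rt. Mitochondrial ribosomal proteins were lower, with a median of 8.80 TPM and 63 of 78 genes in all 3 libraries.

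Protein folding and turnover were represented by chaperones and the proteasome. Hsp90aa1 was at 271, 290 and 235 TPM and Hsp90ab1 at 157, 112 and 139 TPM, so the form known as inducible was above the constitutive form in every library, by 2.00 ± 0.504 times (SD, n = 3). Hspa8, the constitutive HSP70, was at 199, 172 and 160 TPM. The CCT chaperonin, which folds the transducin beta subunit with phosducin-like protein, had 8 of 10 genes in all 3 libraries and a median of 28.1 TPM, and its Tcp1 was at 62.0, 139 and 61.8 TPM. The proteasome had 36 of 40 genes in all 3 libraries and a median of 21.6 TPM. Chromatin genes were present throughout, with 19 of 19 in all 3 libraries. The replacement histones H3f3a and H3f3b were at 316, 261 and 232 TPM and at 285, 133 and 172 TPM. Of the replication-dependent histones, whose main messengers carry no poly(A) tail, 31 of 67 genes were found in all 3 libraries, with the linker histone gene Hist1h1c at 120, 160 and 138 TPM.

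Genes of cellular stress were at moderate levels after dissociation. The immediate early genes had 11 of 16 members in all 3 libraries and a median of 3.63 TPM. Btg2 was at 26.2, 22.9 and 24.3 TPM, Egr1 at 28.7, 17.5 and 17.3 TPM, Fos at 6.67, 15.5 and 27.6 TPM and Jun at 11.1, 16.1 and 17.5 TPM. Fos and Jun were highest in shRNA Control 3 and Egr1 in shRNA Control 1. Atf4, of the integrated stress response, was at 60.8, 118 and 35.2 TPM, and Ddit3, its target, at 20.0, 90.1 and 11.3 TPM. Both were highest in shRNA Control 2.

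Markers of other cell types were present in part. Over 12 lists, 87 of 157 markers (55.4%) had a count in all 3 libraries and the median was 3.26 TPM. Among all ranked protein-coding genes these values were 50.2% and 2.71 TPM, so the markers as a set lay near them. The counts of single lists below are to be read beside the same 50.2%. The rod phototransduction sum exceeded the cone marker sum 18.7, 13.2 and 10.9 times, the bipolar sum 19.8, 11.3 and 19.5 times, the Müller glia sum 12.2, 7.68 and 10.6 times, and the microglia sum 91.9, 148 and 88.1 times. The lists differ in size, and the phototransduction list was not limited to genes found only in rods. It holds Gnb1, for example, which many other cells share. These ratios therefore describe summed levels of lists, and neither cell shares nor a ratio of rod-specific to cone-specific expression. In RNA of pooled cells, fewer cells of a type and less RNA per cell cannot be told apart.

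**Figure D3:**
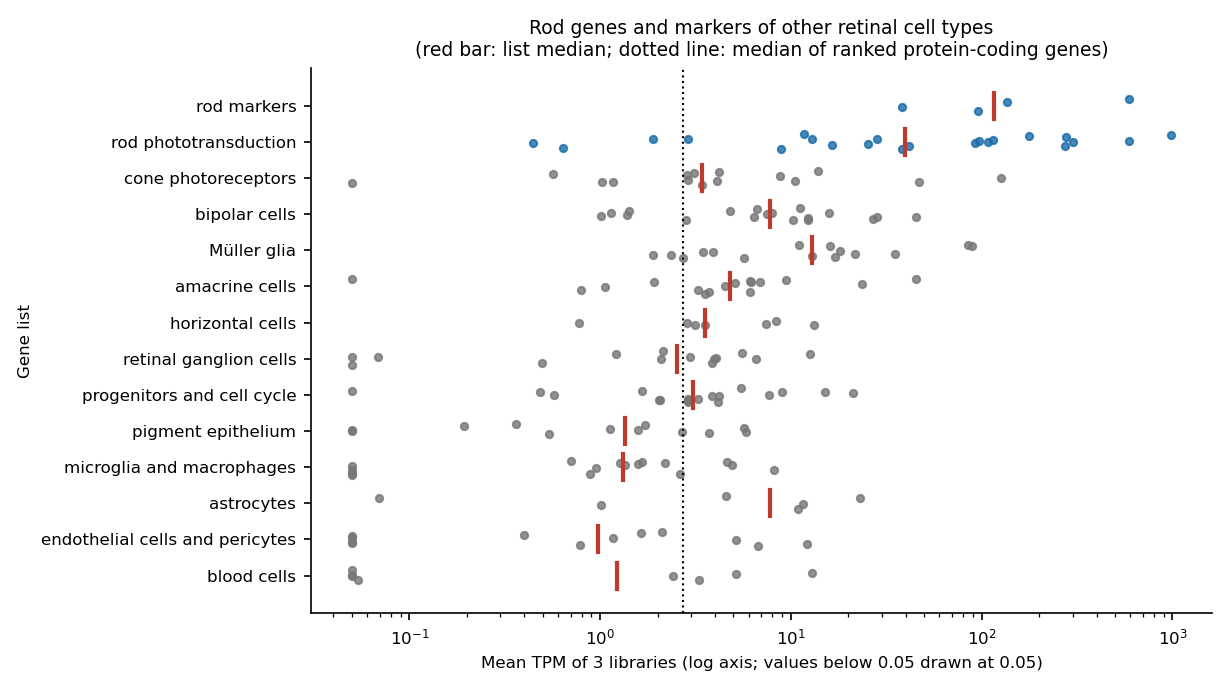
Mean TPM of each marker (points) by list on a logarithmic axis, with list medians (red bars) and the median of all ranked protein-coding genes (dotted line, 2.71 TPM). The rod lists have medians of 116 and 39.8 TPM, and the highest of the others is Müller glia at 12.9 TPM.

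The cone list was led by 2 transducin subunits. Gngt2 was at 103, 171 and 104 TPM and Gnb3, a beta subunit that bipolar cells also express, at 53.9, 51.9 and 35.3 TPM. Opn1sw, the short-wave cone opsin, was at 0 in all 3 libraries. Opn1mw, the other cone opsin, had counts only in shRNA Control 1, at 12.6 TPM, and Arr3, cone arrestin, only in shRNA Control 3, at 12.2 TPM, both named after their values were seen. Thrb, the thyroid hormone receptor of the medium-wave fate, was at 9.24, 2.72 and 19.6 TPM. Of the 15 cone markers 10 were found in every library, while these opsin and arrestin genes were each found in at most 1.

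The bipolar and Müller lists had 14 of 18 and 13 of 16 members in all 3 libraries, with medians of 7.73 and 12.9 TPM. Cabp5, of rod bipolar and cone bipolar cells, was at 25.9, 84.2 and 25.7 TPM. Of the Müller genes Clu was at 45.7, 141 and 79.1 TPM, Apoe at 97.4, 115 and 43.3 TPM, Rlbp1, the retinaldehyde-binding protein of Müller cells and pigment epithelium, at 20.1, 49.5 and 36.1 TPM, and Prdx6 at 30.5, 27.0 and 7.78 TPM. Clu, Rlbp1 and Cabp5 were highest in shRNA Control 2. Among amacrine genes Pax6 was at 90.6, 29.5 and 15.3 TPM. Gngt2, Clu, Apoe, Gnb3, Cabp5 and Pax6 were the 6 markers with a mean above that of Gnat1, a level that 41 rod genes exceeded.

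Several cell types had defining markers at 0 in all 3 libraries. These were Slc17a6 and Isl2 of ganglion cells, Sfrp2 of progenitors, Pmel and Slc16a8 of pigment epithelium, and C1qa, C1qc, Tyrobp and Mpeg1 of microglia. Cldn5, Kcnj8 and Tagln of vessels and Hbb-bs, Hba-a1 and Hba-a2 of red blood cells were also at 0. With Opn1sw, 16 of the 157 markers of other cell types were at 0 throughout. So were 3428 of the 21461 ranked protein-coding genes, a larger share, so zeros were not particular to these markers. Ganglion cell markers had 7 of 14 members in all 3 libraries and a median of 2.54 TPM, microglia 3 of 16 and 1.32 TPM, vessels 5 of 12 and 0.976 TPM, and blood 1 of 8 and 1.23 TPM. The progenitor and cell cycle list had 11 of 18 members and a median of 3.08 TPM, led by Pcna at 24.6, 39.1 and 0 TPM and Cdk1 at 37.8, 0 and 7.31 TPM. Neither of these was found in every library.

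Transcript estimates showed how much of each gene's level lay in coding forms. Annotated coding transcripts held 77.1%, 79.4% and 78.4% of the TPM of the rod genes, and transcripts annotated as retained introns held 15.5%, 12.3% and 13.0%. Over all nuclear protein-coding genes the coding share was 64.7% ± 0.613 and the retained-intron share 17.1% ± 0.620 (SD, n = 3). Cytosolic ribosomal protein genes had a coding share of 86.8% ± 2.89 (SD, n = 3). Transcripts with retained introns are usually nuclear, and a total RNA library includes them.

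**Figure D4:**
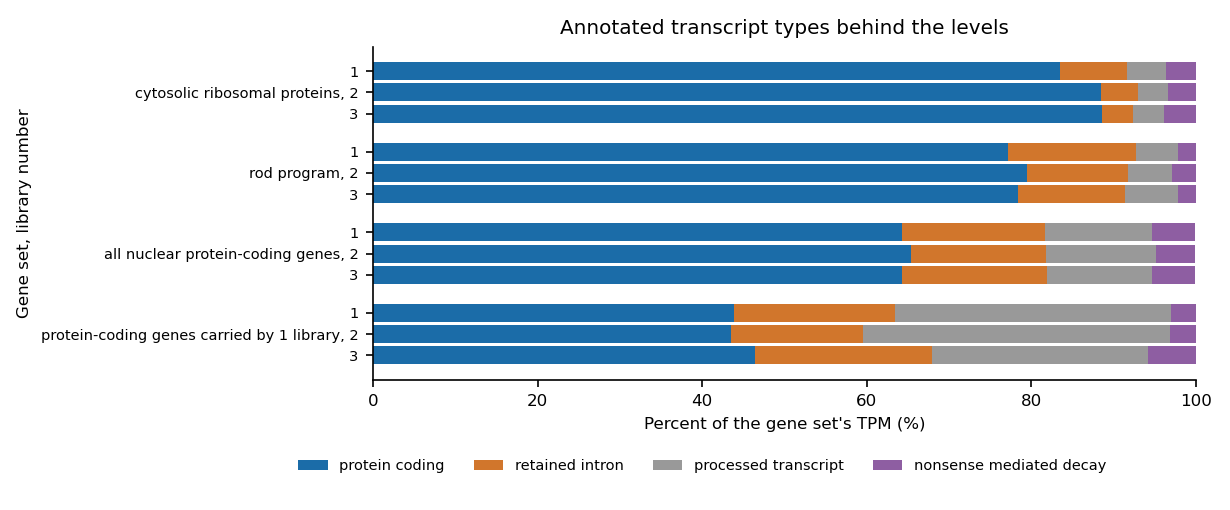
Share of TPM, in percent, held by 4 annotated transcript types in 4 gene sets, with 1 bar for each library. The coding share is 86.8% on average in ribosomal protein genes, 78.3% in rod genes, 64.7% in all nuclear protein-coding genes and 44.6% in genes carried by 1 library.

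Some rod genes had a clear main form and others did not. Sag-201, of 1719 bases, held 94.2%, 96.7% and 97.3% of the Sag TPM, and Gngt1-201 held 99.9% ± 0.171 of that of Gngt1 (SD, n = 3). Rp1-201 held 71.4%, 71.1% and 70.6% and Rp1-203 26.2%, 26.4% and 28.5%, an almost constant split. Pdc was divided between Pdc-204 at 52.0%, 60.6% and 50.8% and the shorter Pdc-203 at 47.8%, 38.7% and 49.0%. Gnat1 had 42.4%, 60.6% and 54.8% of its TPM in Gnat1-204, a noncoding form of 525 bases, and the rest in the coding form Gnat1-201 of 2328 bases. Nr2e3 had no stable main form, since its coding transcript Nr2e3-201 held 20.9%, 60.7% and 31.6%. Of the 99 rod genes with more than 1 annotated transcript, 32 had the same leading transcript in all 3 libraries. Shares of overlapping forms rest on few distinguishing reads at this depth.

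The spread between libraries was large and fell with the level. The median CV was 155% for genes at 1 to 10 CPM, 83.8% at 10 to 30 CPM, 57.5% at 30 to 100 CPM, 41.7% at 100 to 300 CPM, 23.6% at 300 to 1000 CPM and 12.3% above 1000 CPM. Counting alone would give 38.1%, 18.2%, 10.7%, 6.33%, 3.69% and 1.77%. Those values cover the sampling of reads and no variation between samples. Fitted with edgeR to the 3 libraries as a single group, the common biological coefficient of variation was 1.169. Rod genes had a median CV of 35.6%, with phototransduction at 32.1%, transcription factors at 44.3% and the markers of Müller glia at 59.6%. The 10 most even protein-coding genes beside Kcnv2 included Bsg, the basigin gene whose protein binds a factor from rods in cone survival, at 159, 151 and 160 CPM, Ctnnb1 at 137, 138 and 144 CPM, and Smarca4 at 153, 160 and 154 CPM.

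**Figure D5:**
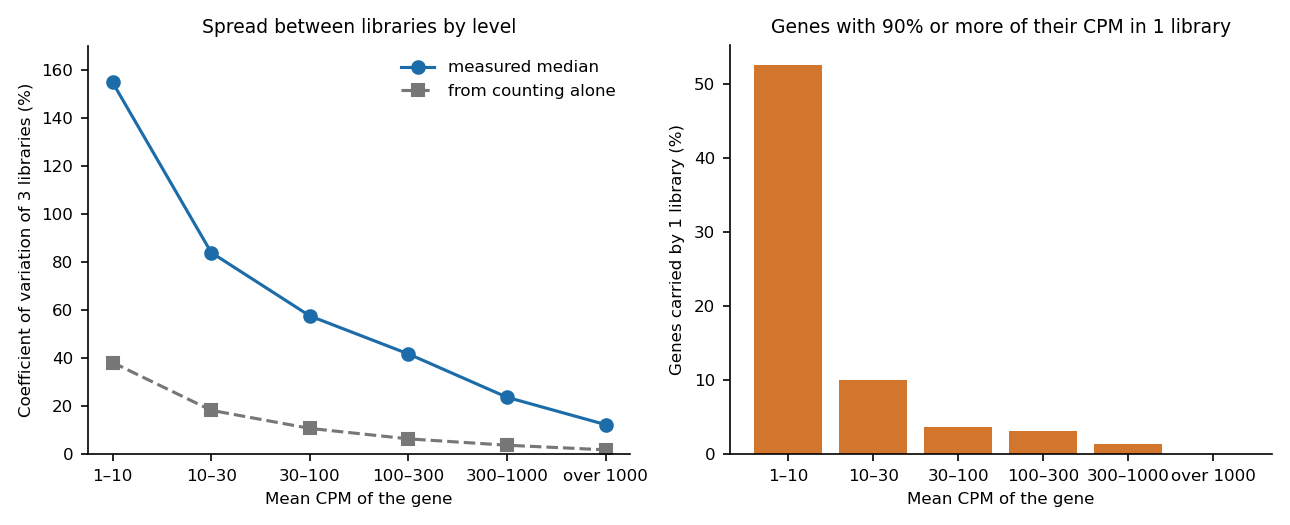
Left, the median coefficient of variation over the 3 libraries (percent) by class of mean CPM, measured and from counting alone. Right, the percentage of genes with at least 90% of their summed CPM in 1 library, which falls from 52.6% at 1 to 10 CPM to 0 above 1000 CPM.

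Many genes were carried by 1 library, meaning that it held at least 90% of the summed CPM. Of 13062 genes with a mean of at least 10 CPM, 881 (6.74%) were of this kind, 692 of them protein-coding, and they held 2.84% of the counts. They were spread over shRNA Control 1, 2 and 3 as 272, 321 and 288. Kif14, a kinesin of cell division, was at 9.33, 1202 and 5.71 CPM, Lrp1, a lipoprotein receptor, at 1181, 14.1 and 109 CPM, and Acsl4, an acyl-CoA synthetase, at 0.802, 8.58 and 712 CPM. Lats2, a kinase of the Hippo pathway, was at 0, 913 and 23.2 CPM, Ppm1k, a mitochondrial phosphatase, at 26.2, 708 and 19.6 CPM, and Chd5, a chromatin remodeler, at 790, 26.8 and 29.5 CPM. Each of these genes was high in a single library and low in the other libraries. Coding transcripts held 43.8%, 43.6% and 46.4% of the TPM of such protein-coding genes and processed transcripts, a noncoding class, 33.6%, 37.3% and 26.3%. In the other protein-coding genes with a mean of at least 10 CPM the shares were 64.9% ± 0.775 and 12.5% ± 0.0950 (SD, n = 3), outside both ranges. The sets were not matched by level. Over all gene types, the median was 16.5 CPM for genes carried by 1 library and 31.1 CPM for the others. Of the rod genes with a mean of at least 10 CPM, 1 of 103 was carried by 1 library.

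Xist, the RNA of the inactive X chromosome, and genes of the Y chromosome were found in the same libraries. Xist was at 436, 287 and 327 CPM, and the Y-linked Kdm5d at 29.2, 87.0 and 72.4 CPM. Uty was at 0.581, 36.0 and 42.2 CPM. Each library thus had counts of both Xist and Kdm5d, while Uty was close to 0 in shRNA Control 1. Of Xist 87.3% of the words were its own and of Kdm5d 93.6%.

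The genes of protein kinase CK2 were at low to moderate levels in these control rods. Csnk2b, the regulatory subunit, was at 70.2, 47.2 and 85.0 TPM. Csnk2a1 was at 15.8, 13.7 and 1.86 TPM, or 66.9, 56.9 and 8.27 CPM, and Csnk2a2 at 1.35, 3.41 and 2.13 TPM. The control level of Csnk2a1 was thus 44.0 ± 31.4 CPM (SD, n = 3), with shRNA Control 3 well below the other 2 libraries.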

How the data were processed

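RNA was measured in 12 libraries, of which the 3 labelled shRNA Control are described. Per the submitters' processing notes, the tools were kallisto 0.45.0 and edgeR 3.28 with the build mm10, while settings and annotation release are not given in the sources used here. Estimated counts of 52962 genes, which the authors left unscaled between libraries, make up 1 deposited table. Their ratio to the deposited transcript values was constant between libraries, within a tolerance of 0.001, for 100% of 9668 genes compared, so these counts are length-scaled from TPM. The deposited transcript table holds TPM for 141196 transcripts. A deposited signal table equals the gene table times a constant per library and served for names and positions only.

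Estimated counts were rounded for detection. CPM used TMM factors over 12 libraries (edgeR 4.0.16, R 4.3.3) after filterByExpr (minimum count 10), which kept 20267 genes. Gene TPM are sums over transcripts, given where all transcripts of a gene matched GENCODE M21, which held for 97.2% of genes. Unique 31-base words were counted over that transcript set. Scripts used Python 3.11.15 and pandas 2.3.3, and the estimate of dispersion between libraries was tested on simulated data. Totals of 1608926 to 1856775 counts limit precision, and limits cover counting error only.

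The members, gene lists and tests were chosen with earlier results of these data known. Named genes were the 25 highest protein-coding genes by TPM without Gm names, the 10 most counted noncoding genes outside mitochondria, all rod list members, the 4 highest of each other list, markers at 0, the 6 highest genes carried by 1 library and the 10 most even genes with 100 counts in each. Some members that the rule names are not reported here. Genes outside this rule are said to be chosen after their values were seen. Alternatives were other thresholds, scalings (library total, DESeq2 1.42.0 size factors, TMM without filter), TPM in place of counts, and leaving out each library.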

Additional observations from a re-analysis of the deposited data

How the results depend on the processing

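Over 9 summaries, 31 of 40 alternatives stayed within the spread between libraries or within 1.5 times the reported count, and 9 did not. With a threshold of 10 counts, 8838 genes were detected in all 3 libraries. As shares of TPM, protein-coding genes held 21.2%, the mitochondrial genome 5.16% and rod phototransduction 0.324%. Without the mitochondrial genome in the total, protein-coding genes held 72.3% of the counts, and phototransduction held 1.24% of the counts of nuclear protein-coding genes. Ranked by CPM, 19 of the 100 highest protein-coding genes were rod genes. Genes carried by 1 library numbered 1710 at a share of 80%, and 119 at a minimum mean of 50 CPM. Leaving out each library in turn gave 15337 to 16175 genes detected in all remaining libraries, a phototransduction share of 0.754% to 0.869% and 7 to 9 rod genes among the 100 highest. Of 84 alternatives for the CPM of 14 single genes, 82 stayed within 1 SD, and the level of Rn7sk moved to 28342 CPM by library total and to 26033 CPM by DESeq2 size factors. Counting only transcripts annotated as coding was an alternative chosen after seeing the data, and it can only keep or lower a level. Among 13 rod genes picked for it, the mean TPM of 5 fell by 1 SD or more. These were Nr2e3, Samd11, Tulp1, Rpgrip1 and Prom1. The 13 give no rate for rod genes at large. Outside them, Gnat1 went from 38.0 to 17.8 TPM, while Pdc stayed at 983 TPM. No paired analysis was possible because the results are descriptions of a single group and come from no test. At totals of 1608926 to 1856775 counts, levels of genes under 10 CPM, transcript shares of low genes and the absence of a marker are limited by depth.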
